A study of Bos indicus with 11 samples.

Results

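Smooth muscle contractile genes encode the filaments with which a smooth muscle cell shortens, the proteins that anchor them, the channels that set its excitability and the transcription factors that switch the set on. They were followed here through 35 gene symbols in the endometrium of beef cows. Rows of the deposited table were taken when any symbol on the row equalled one of the 35, and were kept when their mean over the 11 cows was at least 5 normalized counts, that is, read counts divided by one scaling factor per cow. Of the 35 symbols, 33 were found, on 33 rows, and 32 rows were kept among the 15081 genes tested and the 24616 rows of the table. LDB3 (ENSBTAG00000018707), a Z-disc protein, had a mean of 3.27 normalized counts and at most 7 reads in any cow, and was left below the minimum. FLNC and CACNA1C were not analysed here. ACTG2 and ACTA2, the actins of visceral and vascular smooth muscle, stand on a single row (ENSBTAG00000014614), so the table cannot tell them apart. TPM1 is named on a row of its own (ENSBTAG00000005373) and on a second row (ENSBTAG00000033217) that also names TPM3 and is written TPM1/TPM3 below.

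In smooth muscle, calcium entering the cell binds calmodulin and activates myosin light chain kinase, which phosphorylates the regulatory light chain and lets myosin pull on actin. Tropomyosin, calponin, caldesmon and transgelin lie on the actin filament, desmin joins the filaments to dense bodies, and vinculin and dystrophin join them to the membrane. Serum response factor and its coactivator myocardin drive many of these genes together. In the uterus most smooth muscle lies in the myometrium beneath the endometrium, and vessel walls hold smooth muscle as well.

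The biopsies came from healthy, multiparous Nelore cows (Bos indicus). All were synchronized with a prostaglandin analogue, inseminated at detected estrus and biopsied 6 days after artificial insemination (AI) in the uterine horn opposite the corpus luteum. Cows diagnosed as pregnant on day 30 form the P group (n = 6) and the others the NP group (n = 5), so the groups were formed after sampling, the control cows had also been inseminated, and 1 cow is 1 replicate. The cows were adult, and the labels give no age of a single cow and no lane, date or extraction batch. Cow P617 is pregnant by its label and column name, although a supplementary list of the study names it non-pregnant. It was kept as P, and the comparison of NP with P is also summarized without it. Spans of single rows, shares of counts and group means include it, and correlations leave it out only together with P1541.

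Between 9290949 and 13569085 reads were counted on genes per cow, and 100% of the values in each cow were whole reads within 0.1. The labelled tissue carried its defining genes, with EPCAM of epithelium between 269 and 4719 normalized counts and DCN of stroma between 19394 and 56019. Cow P617 stood apart, with the lowest sum of 20 epithelial markers (3439 normalized counts against 13053 to 34952 in the other 10 cows). Whether the strand was used in counting is not given in the sources used here, so counts of overlapping genes are uncertain. Counts of near-identical copies, such as the actins, are uncertain too, because how reads were split among them was not tested.

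Abundance of the contractile genes differed widely from cow to cow. On the scale of log2(normalized count + 1), averaged over the 32 rows, the cows ran from 10.82 in NP2810 through 10.94 in NP238, 11.08 in NP856, 11.37 in P904, 11.66 in P1631, 11.91 in NP2541, 12.22 in P2396, 12.39 in P1753 and 12.84 in NP638 to 13.43 in P1541 and 13.62 in P617. The span of 2.80 on this log2 scale equals a 6.97-fold difference, and without P617 and P1541 it was 2.03. Cows of the groups were interleaved along it, with 3 NP cows lowest and 2 P cows highest. The mean was 12.45 ± 0.91 in P cows (SD, n = 6) and 11.52 ± 0.86 in NP cows (SD, n = 5). Biopsies are bulk tissue, in which fewer smooth muscle cells and less RNA per cell cannot be told apart.

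**Figure D1:**
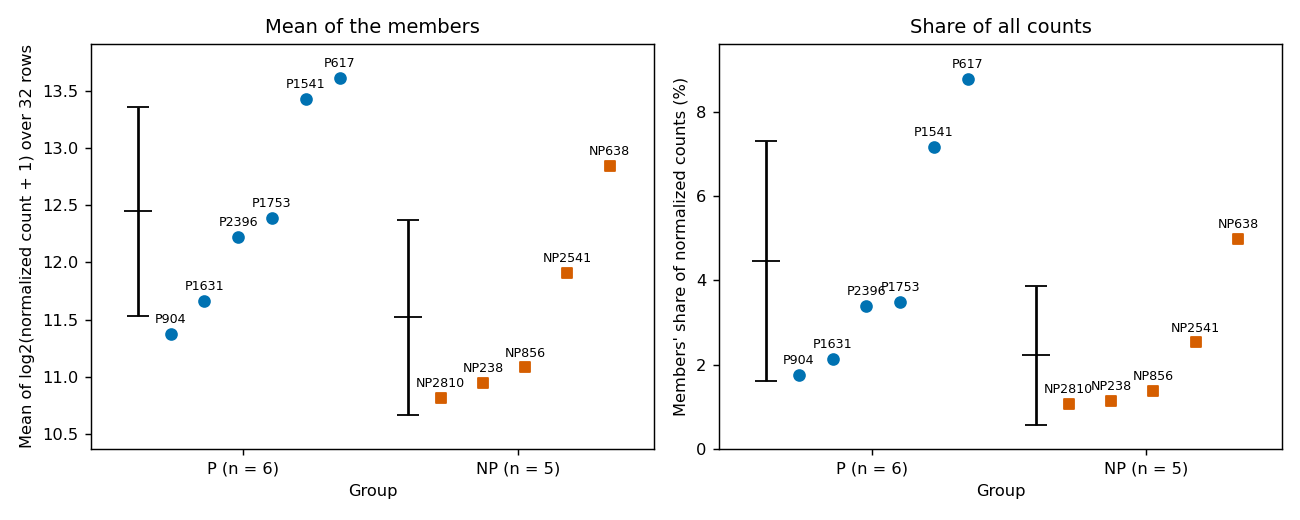
Left, mean of log2(normalized count + 1) over the 32 smooth muscle rows in each cow, and right, their share of all normalized counts in percent, with cows ordered within P (circles) and NP (squares). Black bars are the group mean ± SD. The groups overlap on both scales, and P617 and P1541 lie above every other cow.

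As a share of all normalized counts, the 32 rows took 1.07% in NP2810, 1.14% in NP238, 1.37% in NP856, 2.52% in NP2541 and 4.97% in NP638. Among P cows the share was 1.76% in P904, 2.14% in P1631, 3.40% in P2396, 3.50% in P1753, 7.17% in P1541 and 8.79% in P617. The highest share was 8.21 times the lowest, and without the actin row the shares still ran from 0.945% in NP2810 to 7.29% in P617. NP638 lay far above the other 4 NP cows and above 4 of the 6 P cows.

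Single rows spanned 2.88-fold (DMD) to 29.2-fold (TPM2) between the lowest and the highest cow, with a median of 9.60-fold. The median log2 range of the 32 rows was 3.26, against 1.39 over all genes tested and 1.06 over genes with a mean of at least 100. P617 was the highest cow in 23 rows and P1541 in 6, and these cows took both top places in 26 rows. P617 exceeded P1541 in 24 rows. NP2810 was the lowest cow in 17 rows and NP238 in 9, and NP2810, NP238 and NP856 filled the 3 lowest places in 22 rows.

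**Figure D2:**
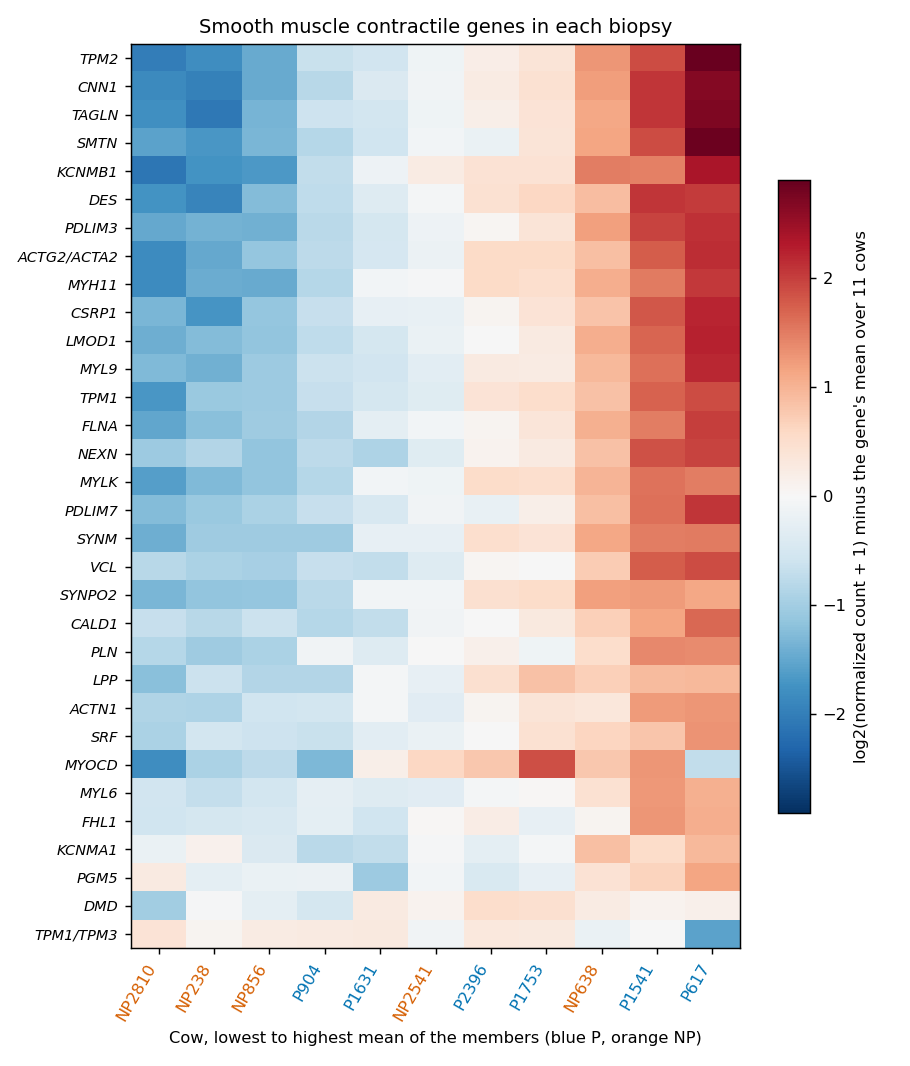
Heat map of the 32 rows (rows ordered by their slope on the mean of the other rows) in the 11 cows, ordered by their mean over the rows. Colour is log2(normalized count + 1) minus the row's mean over cows. Most rows run from low in NP2810 to high in P617, whereas MYOCD is low in P617 and TPM1/TPM3 runs the other way.

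The actin row and myosin carried the contractile filaments in step. ACTG2/ACTA2 ran from 28918 through a median of 72036 to 215006 normalized counts, the unit of all levels below, in the P cows. In the NP cows, listed here and below in the order NP2810, NP238, NP856, NP2541 and NP638, it had 13869, 17427, 22537, 43859.9 and 89878. The lowest P cow, P904, lay below NP2541 and NP638. MYH11 (ENSBTAG00000015988), the smooth muscle myosin heavy chain, ran from 13467 through a median of 34345 to 98540.5 in P cows and stood at 6772, 8772, 8682, 23289 and 49611 in NP cows. The ratio of MYH11 to ACTG2/ACTA2, in which the scaling factor of a cow cancels, stayed between 0.385 and 0.642 in the 11 cows, a 1.67-fold span, while each row alone spanned 14.6-fold and 15.5-fold.

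Of the myosin light chains, MYL9 (ENSBTAG00000011473), the regulatory chain that the kinase phosphorylates, ran from 8264 through a median of 15084 to 57463 in P cows and stood at 5193, 4855, 6116, 10313 and 24263 in NP cows. MYL6 (ENSBTAG00000010799), the essential chain, which non-muscle myosin also uses, spanned only 3.88-fold, from 8643 in NP238 to 33526 in P1541. MYLK (ENSBTAG00000014567), the light chain kinase, whose row also names LOC100850955, ran from 6468 through a median of 16413 to 34339.8 in P cows and stood at 3778, 4708, 5174, 10444 and 22649.9 in NP cows. P1541 exceeded P617 in both MYL6 and MYLK. The ratio of MYLK to MYL9 was lowest in P617, at 0.555, and between 0.728 and 1.25 in the other cows.

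Thin filament regulators held the widest spans in the set, with P617 as the highest cow for TPM2, TAGLN, CNN1 and SMTN. Spans of these rows without P617 are not given. TPM2 (ENSBTAG00000011424), beta-tropomyosin, ran from 12308 through a median of 23473 to 140106 in P cows and stood at 4798, 5484, 6924, 17506 and 46488 in NP cows, so that P617 was 29.2-fold above NP2810. TAGLN (ENSBTAG00000007196), transgelin, an actin-binding protein used as a smooth muscle marker, ran from 15805 through a median of 29083 to 155335 in P cows and stood at 7002, 5629.6, 9376, 21729 and 51871 in NP cows. CNN1 (ENSBTAG00000011207), calponin, which restrains the myosin ATPase, ran from 4861 through a median of 10774 to 53629 in P cows and stood at 2377, 2189.8, 3102, 7927 and 19741 in NP cows. In all 3 genes NP638 lay above P904, P1631, P2396 and P1753. SMTN (ENSBTAG00000003100), smoothelin, spanned 23.3-fold and in P617, at 26168, was 1.93 times its value in P1541. LMOD1 (ENSBTAG00000021576), leiomodin, which nucleates actin filaments, spanned 12.5-fold, and CALD1 (ENSBTAG00000013953), caldesmon, which has non-muscle forms too, spanned 5.58-fold.

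The tropomyosin rows differed from each other. TPM1, alpha-tropomyosin, on the row of its own ran from 5278 through a median of 11556 to 31341 in P cows and stood at 2629.9, 4006, 4048, 6584 and 15234 in NP cows. The ratio of TPM2 to TPM1 counts, which without gene lengths compares only cows, ran from 1.37 to 3.05 in the NP cows and from 1.97 to 4.47 in the P cows, with P617 highest. TPM1/TPM3 ran against both, with its lowest value in P617, at 1262, and between 3216 and 4879 in the other 10 cows. Its reads cannot be assigned to one of the genes it names.

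Intermediate filament genes followed the filaments. DES (ENSBTAG00000005353), desmin, ran from 10537 through a median of 25064 to 73605 in P cows and stood at 5287, 4608, 7329, 16762 and 32599 in NP cows. P1541 and P617 were nearly level and were the only cows above 32599, the value of NP638. SYNM (ENSBTAG00000011752), synemin, which copolymerizes with desmin, ran from 708 through a median of 1957 to 4063 in P cows and stood at 538, 699.9, 708, 1224 and 3144 in NP cows.

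Actin crosslinkers and dense body proteins made up 8 rows. FLNA (ENSBTAG00000011190), filamin A, which ties actin filaments into networks, ran from 21749 through a median of 45947 to 158119 in P cows and stood at 13922, 17043, 19461, 37438 and 80264 in NP cows. ACTN1 (ENSBTAG00000018255), alpha-actinin 1, ran from 5168 through a median of 8731 to 17938 in P cows and stood at 4076, 3997, 4957, 5919.7 and 9284 in NP cows. CSRP1 (ENSBTAG00000016057), a LIM domain protein that binds alpha-actinin, ran from 4376 through a median of 8275 to 32408 in P cows and stood at 2791, 2131, 3219, 6018 and 12335 in NP cows. In ACTN1 the P cows P1541 and P617 and also P1753 lay above every NP cow. The PDZ and LIM domain proteins PDLIM3 (ENSBTAG00000017183) and PDLIM7 (ENSBTAG00000007343) spanned 12.1-fold and 10.1-fold, and both were highest in P617. NEXN (ENSBTAG00000008921), nexilin, which binds filamentous actin, spanned 8.64-fold, from 194 in NP856 to 1672 in P617. SYNPO2 (ENSBTAG00000006434), synaptopodin 2, was the one row in this group in which NP638, at 8198, exceeded P617, at 7783. FHL1 (ENSBTAG00000018513), another LIM domain protein, had the narrowest span of the group, 3.64-fold.

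Proteins that join the filaments to the membrane did not all follow the same course. VCL (ENSBTAG00000021879), vinculin of adhesion plaques, ran from 4052 through a median of 6753 to 24749.5 in P cows and stood at 3809, 3519.8, 3402, 5092 and 11113 in NP cows. PGM5 (ENSBTAG00000033190), aciculin, a phosphoglucomutase relative found at adhesion sites, ran from 4528 through a median of 8170.2 to 20783 in P cows and stood at 11318, 7677, 8166, 8965 and 12605 in NP cows. Its lowest cow was P1631, and NP2810, the lowest cow for most rows, was among its 4 highest. The ratio of PGM5 to VCL ran from 0.653 in P1541 to 2.97 in NP2810. DMD (ENSBTAG00000008248), dystrophin, whose row also names LOC790177, ran from 668 through a median of 1093 to 1359 in P cows and stood at 472, 926, 782, 1012 and 1123 in NP cows, with P2396 highest. Relative to MYH11, DMD was lowest in P617, at 0.0106, and highest in NP238, at 0.106. LPP (ENSBTAG00000044001), a LIM protein of focal adhesions, spanned 4.52-fold, from 67.3 in NP2810 to 304 in P617.

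Subunits of the large-conductance, calcium-activated potassium channel, which lets smooth muscle relax, were not in step. KCNMB1 (ENSBTAG00000002985), its beta 1 subunit, which raises its sensitivity to calcium and is made mostly in smooth muscle, ran from 382 through a median of 830.5 to 3215 in P cows and stood at 145, 186, 196, 740.3 and 1762 in NP cows. KCNMA1 (ENSBTAG00000013300), the pore-forming subunit, which other cells make too, ran from 1032 through a median of 1579.6 to 3412 in P cows and stood at 1539, 1937, 1319.6, 1735 and 3254 in NP cows. KCNMB1 spanned 22.2-fold and KCNMA1 3.31-fold. The ratio of KCNMB1 to KCNMA1 was 0.0940, 0.0961 and 0.148 in NP2810, NP238 and NP856, 0.427 in NP2541 and 0.542 in NP638, and between 0.370 and 0.942 in the P cows. The 3 NP cows lowest in the contractile genes thus lay apart from the other 8 cows in this ratio. PLN (ENSBTAG00000012931), phospholamban, which holds back the calcium pump of the sarcoplasmic reticulum, spanned 5.42-fold, with 1787 in P1541 and 1767 in P617 above every other cow.

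The transcription factors of the set went separate ways in P617. SRF (ENSBTAG00000012777), serum response factor, ran from 586 through a median of 1074 to 2232 in P cows and stood at 484, 632, 596, 797 and 1412 in NP cows, and was highest in P617. MYOCD (ENSBTAG00000035706), myocardin, had 109.6 normalized counts in P617, 71.9 in P904, 437 in P1541, 203 in P1631, 660.4 in P1753 and 311 in P2396. In the NP cows it had 51.0, 95.1, 106, 272 and 309, and its lowest value rested on 50 reads. P617, the highest cow for most contractile genes, was the second lowest P cow for MYOCD. The ratio of MYOCD to MYH11 was 0.00111 in P617, 0.0197 in P1753 and between 0.00534 and 0.0123 in the other 9 cows. The ratio of MYOCD to SRF was likewise lowest in P617, at 0.0491, and highest in P1753, at 0.534.

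Across cows, most rows varied together. Pearson's r over the 11 cows between a row and the mean of the other 31 rows, on the log2 scale, had a median of 0.979, and r was above 0.9 in 26 rows and above 0.95 in 25. All correlations here are descriptions over 11 cows, each with 1 library and 1 scaling factor, and were not tested. P617 and P1541 are the cows farthest from the median of the mean over the rows, and without them the median r was 0.975 and 26 rows were above 0.9. Within groups, after each group's mean was subtracted, the median was 0.977 and 27 rows were above 0.9. Of the 15049 genes tested outside the set, 241 (1.60%) had r above 0.9 with the mean of the 32 rows and 79 above 0.95, and their median r was -0.039.

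The tightest rows were PDLIM3 (r = 0.996), FLNA (r = 0.995), CNN1 (r = 0.995) and LMOD1 (r = 0.993). Rows differed in the size of their steps between cows. The slope of a row on the mean of the others was 1.60 (standard error 0.0784) for TPM2, 1.59 for CNN1 and 1.56 for TAGLN. It was 0.698 (standard error 0.0522) for SRF and 0.631 (standard error 0.0669) for MYL6, which followed a similar order with smaller steps.

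The 6 rows with r below 0.9 stood outside the common course. MYOCD had r = 0.569 over all cows and 0.862 without P617 and P1541, and DMD had 0.581 and 0.757. PGM5 went the other way, from 0.612 to 0.0954, and KCNMA1 from 0.729 to 0.498, although within groups KCNMA1 had r = 0.921. FHL1 had 0.894 and 0.778. TPM1/TPM3 was the one row with a negative r, -0.671 over all cows, -0.461 without both cows and -0.698 within groups. For MYOCD, the slope was 0.676 (standard error 0.325) over all cows and 1.49 (standard error 0.331) without P617 and P1541.

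**Figure D3:**
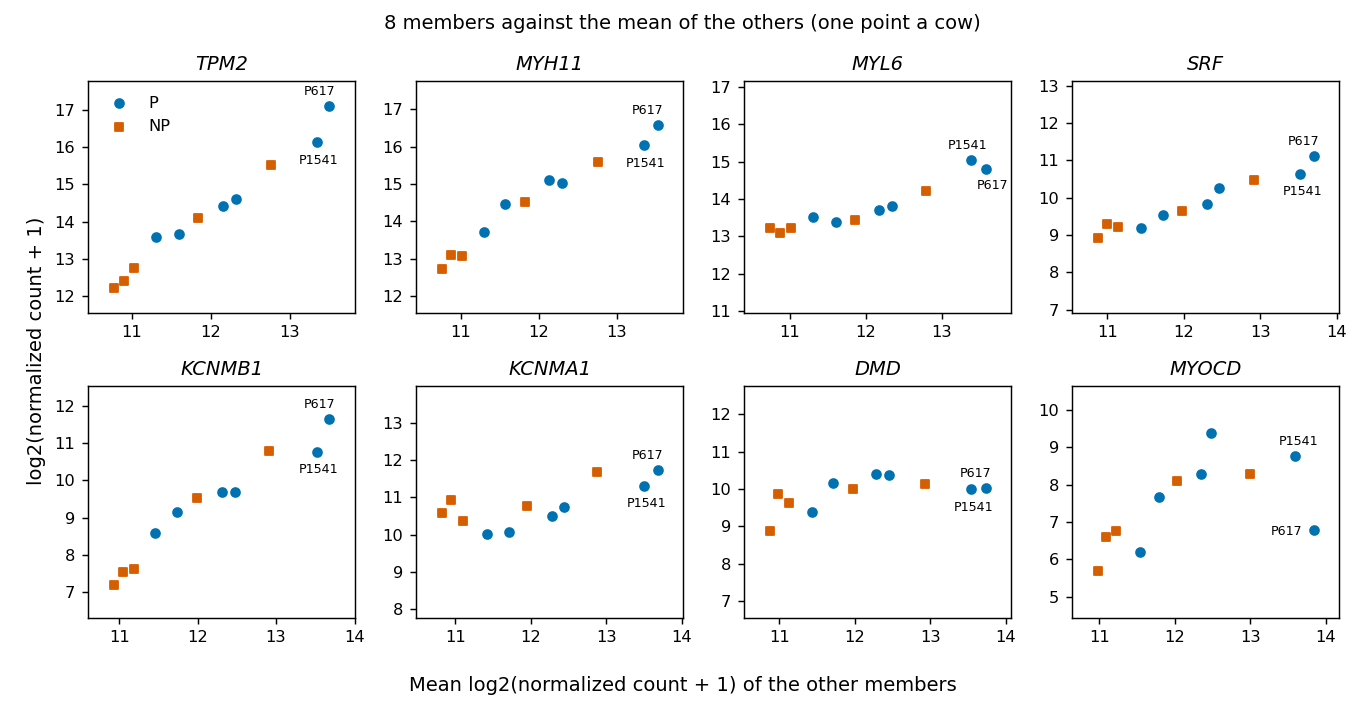
Each panel plots log2(normalized count + 1) of 1 gene against the mean of the other 31 rows on the same scale, 1 point a cow (circles P, squares NP), with y axes of equal length. TPM2 climbs more steeply than MYL6 and SRF, DMD and KCNMA1 climb little, and MYOCD in P617 falls below the line of the other cows.

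Whether the contractile genes differ between NP and P cows was asked with limma on the log2(normalized count + 1) scale over all 15081 genes. The set leaned to lower values in NP cows, but no row passed. The log2 fold change, NP over P, was below 0 in 29 of the 32 rows, against 49.8% of all genes tested, and the median was -0.94, against 0.0018 over all genes. No row had an adjusted p-value under 0.1 (adjusted p from 0.564 to 0.981), and of all genes tested 0% did. An unadjusted p-value under 0.05 with lower values in NP was found for 5 rows (15.6%), against 2.35% of all genes tested, and for 0 rows with higher values in NP. These 32 rows move together, so their counts are not 32 separate results. The groups overlapped in every row. Of all genes tested only 1.09% had no overlap, so 0 of 32 rows lies near that share.

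The 5 rows were ACTN1, DES, CSRP1, MYH11 and TPM1. ACTN1 had a log2 fold change of -0.87 (standard error 0.35, unadjusted p = 0.0306, adjusted p = 0.564 in limma). DES had -1.48 (standard error 0.65, unadjusted p = 0.0413, adjusted p = 0.607 in limma), and CSRP1 had -1.31 (standard error 0.59, unadjusted p = 0.0479, adjusted p = 0.634 in limma). MYH11 had -1.35 (standard error 0.62, unadjusted p = 0.0495, adjusted p = 0.637 in limma), and TPM1 had -1.22 (standard error 0.56, unadjusted p = 0.04999, adjusted p = 0.638 in limma). MYLK lay just outside, at -1.17 with an unadjusted p-value of 0.0503. The rows with the most negative values were TAGLN (-1.54), CNN1 (-1.52) and TPM2 (-1.52), whose standard errors of 0.74 to 0.76 were also among the largest. ACTG2/ACTA2 had a log2 fold change of -1.37 (standard error 0.64, unadjusted p = 0.0552, adjusted p = 0.650 in limma). Rows above 0 were PGM5 (0.046), KCNMA1 (0.13) and TPM1/TPM3 (0.15), each with a standard error of at least 0.31.

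By role, the median log2 fold change was -1.25 for the 8 rows of thin filament regulators, -1.22 for the 2 rows of intermediate filaments and -1.15 for the 4 rows of myosin, its light chains and their kinase. It was -0.92 for the 8 crosslinkers and dense body proteins, -0.85 for the 3 channel and calcium pump rows, -0.68 for the 2 transcription factors and -0.59 for the 4 membrane linkers. MYOCD had -0.77 (unadjusted p = 0.244) and SRF -0.59 (unadjusted p = 0.129).

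**Figure D4:**
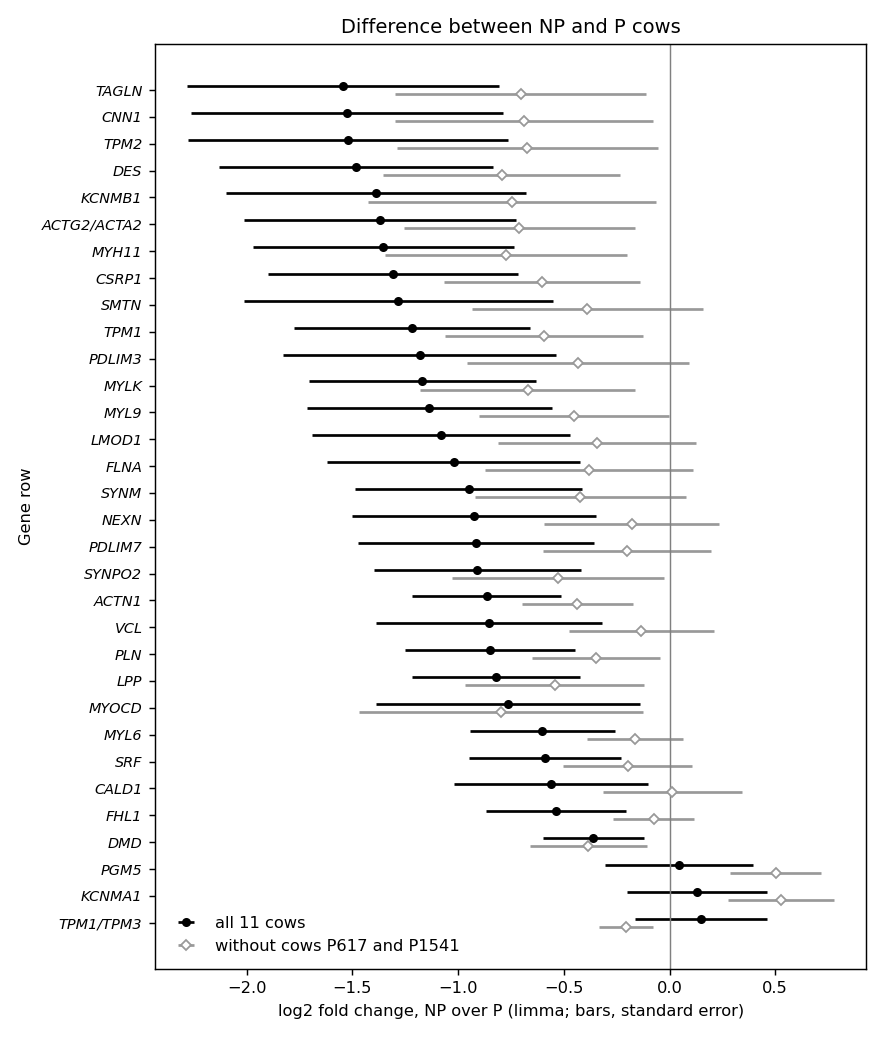
Log2 fold change of NP over P for each of the 32 rows with its standard error (limma), for all 11 cows (filled circles) and without P617 and P1541 (open diamonds). In 29 rows the filled circle lies left of 0, and the open diamonds lie closer to 0 in most rows.

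P617 and P1541, both P cows, were also left out together. They were picked as farthest from the median of the mean over these same rows, and lie highest on it. A smaller difference without them was therefore fixed in advance. Without them, the median log2 fold change was -0.43, 29 rows were below 0, with CALD1 no longer among them and TPM1/TPM3 now among them, and the lowest adjusted p-value was 0.428. The 1 row at an unadjusted p-value under 0.05 was then PGM5, higher in NP at 0.50 (unadjusted p = 0.0408). In this limma fit, 1681 of all 15081 genes tested were under the same limit, and 17 had an adjusted p-value under 0.1. KCNMA1 had 0.53 (unadjusted p = 0.0623) and MYH11 -0.77 (unadjusted p = 0.204). When single cows were left out, the rows at an unadjusted p-value under 0.05 numbered 0 without P617, P1541, NP238, NP856 or NP2810, 2 without P1753 or P2396, 3 without NP2541, 12 without P1631, 19 without P904 and 24 without NP638. Over all genes tested, the same count ran from 853 to 1548 in these fits, against 1182 with all cows. DESeq2 on the recovered reads, without a prior on the fold change, gave 15 rows an unadjusted p-value under 0.05, all lower in NP, against 4.15% of the genes it tested. It gave 0 rows an adjusted p-value under 0.1 (lowest 0.277, ACTN1), against 1.34% of those genes.

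Outside the set, the 10 genes tested whose values ran closest to the mean of the 32 rows were FBXL22 (r = 0.994), a row naming LOC100850046 and SYNC (r = 0.993), ACTB (r = 0.992), TCF23, MRVI1, PDZRN3, MSRB3, TSPAN2, a row without a standard symbol (ENSBTAG00000004078) and DSTN (r = 0.986). All 10 were highest in P617, which is also the highest cow of the mean they were chosen by. That place, and lower values in NP, therefore follow largely from the choice. SYNC is syncoilin, an intermediate filament protein, and MRVI1 takes part in the relaxation of smooth muscle by cyclic GMP. ACTB (ENSBTAG00000015441), cytoplasmic beta-actin, ran from 3030.2 to 81718 normalized counts, a 27.0-fold span, wider than that of the ACTG2/ACTA2 row. Actin copies are near-identical in their coding parts, and how reads were split among them was not tested. DSTN, destrin, which takes actin filaments apart, had a log2 fold change of -1.10 (unadjusted p = 0.0462, adjusted p = 0.626 in limma).

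Lists of related genes, drawn up from general knowledge but with earlier results of these data known, followed the contractile genes to differing degrees. Over 22 rows of dense plaques and caveolae, which anchor the filaments and fold the smooth muscle membrane, the mean per cow had r = 0.972 with the mean of the 32 rows (0.953 without P617 and P1541). Of these, 19 were below 0 in NP over P, against 49.8% of all genes tested, and 2 were lower in NP at an unadjusted p-value under 0.05, against 2.35%. They were DTNA, dystrobrevin alpha (-0.91), and PARVA, alpha-parvin (-0.65). Over 12 rows of myometrial receptors and gap junctions, r was 0.951 (0.889 without both cows), with 7 rows below 0 and 5 above. Of them, 1 row, GJC1, a connexin of gap junctions, had an unadjusted p-value under 0.05, lower in NP (-0.66). Their summed levels followed the set less, with 6449 normalized counts in NP2810 and 3603 in P1631. Over 25 rows of contraction control (myosin phosphatase, the cyclic GMP pathway and non-muscle isoforms among others, with 1 row shared with the 32), r was 0.941 (0.932), and 0 rows had an unadjusted p-value under 0.05. These r values describe the mean of each list. Single rows with r above 0.9 numbered 7 of 22 for dense plaques and caveolae, 2 of 12 for myometrial receptors and 6 of 25 for contraction control.

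Calcium handling was divided. Over its 21 rows r was 0.788 (0.701 without both cows), with 12 rows below 0 and 9 above. STIM1, the calcium sensor of the endoplasmic reticulum, and JPH2, junctophilin 2, had log2 fold changes of -0.63 and -1.62, each at an unadjusted p-value under 0.05. Higher in NP at that threshold, which 5.49% of all genes tested passed in this direction, were ABCC9, a subunit of ATP-sensitive potassium channels that pericytes also make, CASQ2 and TRPC6, with log2 fold changes of 1.02, 2.04 and 0.96. The 17 rows of SRF cofactors and regulators did not follow the set (r = -0.170), and TGFB1, JAG1 and KLF4 were higher in NP at an unadjusted p-value under 0.05, with log2 fold changes of 0.67, 0.45 and 0.53. None of the rows of these lists had an adjusted p-value under 0.1 in limma.

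Of the markers of other cell types, those of immune cells ran opposite to the contractile genes, with r = -0.890 over 14 rows (-0.811 without P617 and P1541), 14 of 14 above 0 in NP over P (6 higher at an unadjusted p-value under 0.05, against 5.49% of all genes tested), and summed levels of 889 to 2106 normalized counts in P cows and 1411 to 2635 in NP cows. Endothelial markers had r = -0.657 (-0.323 without both cows), 13 of 13 above 0 (12 higher at an unadjusted p-value under 0.05, against the same 5.49%), and sums of 5446 to 16845 and 10470.3 to 18625, in P and NP cows respectively. Over 20 epithelial markers r was -0.663 and, without both cows, -0.124, with 17 above 0 and sums of 3439 to 34952 and 15741 to 22537. KRT7 (-1.03) was the 1 epithelial marker at an unadjusted p-value under 0.05, lower in NP. Stromal markers had r = 0.290 and, without both cows, -0.259, with 11 of 13 above 0 (3 higher at an unadjusted p-value under 0.05) and sums of 127568 to 379235 and 264264 to 360579. Pericyte markers had r = -0.075 (-0.240 without both cows), with 8 of 9 above 0 (4 higher at that threshold) and sums of 4029 to 8744 and 7754 to 9574. ABCC9 is among these 4 and is also counted in the calcium handling list. The 5 mesothelial rows had r = 0.528 (0.159 without both cows), with 3 below 0 and 2 above, and sums of 1722 to 8260.2 and 2022 to 5083. Of them, 1 row, MSLN (-1.32), was lower in NP at an unadjusted p-value under 0.05, against 2.35% of all genes tested. The part of these cell types in the differences among cows and between groups was not tested.

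Of 19 rows of striated muscle markers found, 10 passed the minimum, and their sum lay between 179.6 and 805 normalized counts. The most abundant, ACTC1, cardiac actin, which is a near copy of the other actins, reached 646. ACTA1 ran from 7.06 to 290.4, and MB, myoglobin, from 17.2 to 191. The only rows of the list at 0 in every cow were MYH1, MYH2 and MYL1. The mean over the 10 rows had r = 0.410 with the contractile genes (0.753 without P617 and P1541).

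**Figure D5:**
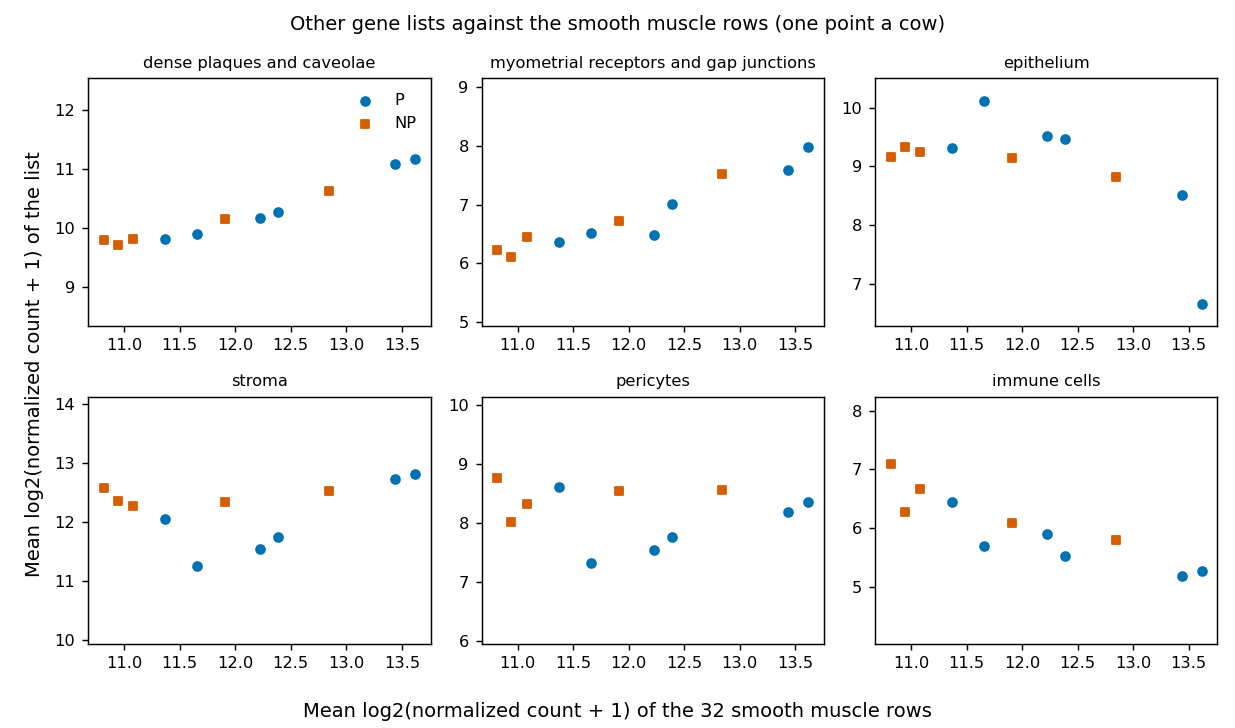
Mean of log2(normalized count + 1) over 6 other gene lists against the mean over the 32 smooth muscle rows, 1 point a cow (circles P, squares NP), with y axes of equal length. Dense plaque and caveolar genes and myometrial receptors climb with the contractile genes, immune markers decline, and P617 lies lowest for epithelium.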

How the data were processed

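RNA-Seq data of endometrial biopsies of 11 cows (P, n = 6 and NP, n = 5), grouped by their labels, were used. Per the labels and the study's methods, the authors filtered paired-end reads of poly(A)-selected RNA with Seqyclean, used Bowtie2 2.1.0 (local alignment) against the repeat-masked UMD3.1 genome, counted reads on each gene with HTSeq 0.5.4p2 and scaled the counts with DESeq2 1.12.1. CASAVA 1.8.2 is also named in the submitters' processing notes. The annotation release and the use of strand are not given in the sources used here. What the authors deposited is a non-negative signal, the normalized count of each gene, in 1 column per cow. Every column was used. The table also names the genes, and no column of fold changes or p-values was used.

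Values were tested on the scale of log2(value + 1) with limma 3.58.1 in R 4.3.3 (lmFit, eBayes with a trend) over 15081 genes whose mean was 5 or more, with the Benjamini-Hochberg adjustment over all of them and a threshold of 0.1. A fold change on this scale understates the change of low genes. Each cow's deposited values are multiples of the worth of 1 read, and 100% came out whole within 0.1, so edgeR 4.0.16, DESeq2 1.42.0 (without independent filtering) and limma-voom were run on the recovered reads as alternatives. Other alternatives were the pseudocount (0.5 and 5), no minimum, other scalings, array weights, an epithelial covariate, cow P617 as NP, and leaving out each cow or P617 and P1541 together. Cows are the replicates, and the depth of 9290949 to 13569085 reads limits genes near the minimum. The tests were tested on simulated data.

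Every kept row is named, and outside the set the 10 genes with the highest r with the mean of the rows and genes of the lists of related genes at an unadjusted p-value under 0.05. Lists of other cell types are given by their counts and sums, with few of their genes named. The genes and the lists (contraction control, calcium handling, SRF cofactors, dense plaques and caveolae, myometrial receptors, striated muscle, epithelium, stroma, pericytes, endothelium, immune cells and mesothelium) were chosen with earlier results of these data known. A search for SRF binding boxes in promoters, sequences, coordinates and comparisons of levels between genes per length were left out, because no genome or transcript of this build was used here.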

Additional observations from a re-analysis of the deposited data

Results flagged for a closer look

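In a group of cows, a value was marked when its gap to the nearest other cow, as a share of the group's range, passed the 95% limit of Dixon's test. Of the 66 groups tested (32 rows and the 33rd value, the mean over the rows, in each of P and NP), 7 were marked, where chance marks about 1 in 20, and the rows are not independent of each other. In 6 of the 7, cow NP638 was the high cow of the NP group. MYL9 had 24263 normalized counts in NP638 against 10313 in the next NP cow, and PDLIM3 had 12920.3 against 5124. VCL had 11113 against 5092, and MYL6 had 19065 against 11136. SYNM had 3144 in NP638 against 1224, and NEXN had 773 against 334. In the other rows, MYH11, ACTG2/ACTA2 and the thin filament regulators among them, no NP cow passed the limit. NP638 was nevertheless the highest NP cow in all of those rows but TPM1/TPM3. LMOD1, for example, had 5188 normalized counts in NP638 against 2192 in NP2541. The marks thus do not divide the rows by role. In the P group the marked value was TPM1/TPM3 in P617, which had 1262 normalized counts against 3652 in the next P cow. No cow was marked for the mean over the 32 rows.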

How the results depend on the processing

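Under 24 alternatives, 752 of 768 fold changes of the 32 rows kept their direction, the lowest adjusted p-value of any row in any of these settings was 0.230, and 0 rows passed the threshold in each. The 16 values that turned belong to 4 rows, of which PGM5, TPM1/TPM3 and KCNMA1 lay near 0 and CALD1 at -0.56. PGM5 turned to -0.098 (edgeR, TMM), -0.11 (edgeR, DESeq2 size factors), -0.11 (DESeq2) and, with single cows left out, -0.16 (P1631), -0.041 (P2396), -0.054 (NP638) and -0.015 (NP2810), in a range up to 0.28. TPM1/TPM3 turned to -0.17 (array weights), -0.15 (without P617, with single omissions reaching up to 0.23), -0.21 (without P617 and P1541) and -0.42 (P617 as NP). KCNMA1 turned to -0.014, -0.00011 and -0.072 without P904, P1631 and NP638, in a range up to 0.33. CALD1 turned to 0.013 without P617 and P1541 and 0.049 with P617 as NP. The 5 rows at an unadjusted p-value under 0.05 became 3 with TMM and 3 with upper-quartile scaling, 1 and 2 with edgeR (TMM and DESeq2 size factors), 15 with DESeq2, 0 with array weights, 1 without P617 and P1541, 0 with P617 as NP and 14 with the epithelial covariate. Over all 15081 genes tested, the same count was 1182 in the main fit, 1166 with TMM, 1158 with upper-quartile scaling, 1140 and 1145 with edgeR and 1470 with DESeq2. It was 1657 with array weights, 1681 without P617 and P1541, 977 with P617 as NP and 1923 with the epithelial covariate. With each cow left out in turn, the count ran from 0 to 24 among the 32 rows and from 853 to 1548 over all genes tested. Among the 32 rows it was 0 without P617, P1541, NP238, NP856 or NP2810, 2 without P1753 or P2396, 3 without NP2541, 12 without P1631, 19 without P904 and 24 without NP638. The median log2 fold change of -0.94 ran from -1.35 (without NP638) to -0.73 (without P617), and was -0.55 with array weights, -0.43 without P617 and P1541 and -0.40 with P617 as NP. The cause of these shifts was not tested. The span of the mean over the rows (2.80) was 2.03 without P617 and P1541 and 2.95 without the TPM1/TPM3 row. The last 2 alternatives were chosen after seeing the data, as was the median r without both cows (0.975). No paired analysis was possible because the cows of the groups share no replicate number. Every kept row rests on at least 50 reads in each cow.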
